A study of Mus musculus with 28 samples.

Results

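Gene expression 1 hour after a nicotine-induced seizure was compared between mice carrying an altered alpha7 nicotinic acetylcholine receptor and wild-type mice. The comparison takes 8 of the 28 mice of the series, chosen by their sample labels: 5 seized alpha7 +/T mice and 3 seized wild-type mice. RNA of the whole brain of each mouse was hybridised to 1 Affymetrix U74Av2 array, which reports a signal per probe set, a group of short probes to 1 transcript. The alpha7 +/T mice are heterozygous for the L250T allele of Chrna7, the gene of the alpha7 subunit, so a normal copy remains. All mice were of the C57BL/6J strain. The seized alpha7 +/T mice were all 8 weeks old, 3 female and 2 male, and the seized wild-type mice were 7, 8 and 7 weeks old, 2 female and 1 male. Titles of all 5 seized alpha7 +/T mice and of seized wild-type mouse 1 begin with LT, and those of seized wild-type mice 2 and 3 with B4, a prefix that the labels do not explain. Each genotype received its own intraperitoneal dose of nicotine, picked so that the seizures scored alike. The labels do not state the amounts, and genotype and dose cannot be told apart. The same genotypes without nicotine, 5 untreated alpha7 +/T mice (4 of 6 weeks and 1 of 8 weeks) and 6 untreated wild-type mice (3 of 6 weeks and 1 each of 7, 8 and 9 weeks), serve as background. The beta4 -/- mice, 4 seized and 5 untreated, enter the fit through the shared estimates of spread and of an array effect described below. The seized ones were 8, 8, 8 and 7 weeks old, and the untreated ones 6, 9, 7, 8 and 8 weeks.

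The alpha7 subunit forms a receptor of like subunits that admits calcium when acetylcholine or nicotine binds, and the brain holds it in many regions, among them the hippocampus and cortex. The L250T substitution replaces a leucine in the pore-lining segment with threonine, and channels of this kind are known to desensitise slowly and to respond to low agonist concentrations. Calcium entry during a seizure switches on immediate early genes, whose products (Fos, Egr1, Nr4a1 and others) are transcription factors, followed by effector genes such as Bdnf and Ptgs2. Feedback genes such as Dusp6 then shut down the MAP kinases that carry the signal.

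The arrays differed in a control for the length of the labelled RNA. The log2 ratio of the 3 prime to the 5 prime Gapdh control signal was -0.46, -0.48, -0.32, 1.60 and 1.95 in seized alpha7 +/T mice 1 to 5, against 1.61, 1.93 and 1.89 in seized wild-type mice 1 to 3. Alpha7 +/T mice 1 to 3 thus lay below 0.5 (low-ratio arrays), while alpha7 +/T mice 4 and 5 lay among the wild-type mice (high-ratio arrays). The group means differed by -1.35 (two-sided exact permutation test, p = 0.125, where 0.0357 is the smallest p that 5 against 3 allows). Rank correlations with the wild-type arrays were 0.848 to 0.891 for the low-ratio alpha7 +/T arrays and 0.950 to 0.967 for the high-ratio ones, and wild-type arrays correlated with each other at 0.969 to 0.975. The class was therefore a covariate of the fit, and it was itself called for 3829 probe sets (52.1%). No wild-type array was low-ratio, so the class effect was estimated within the alpha7 +/T and beta4 -/- groups. Array median signals were 49.6 to 61.1 in seized alpha7 +/T and 47.0 to 49.0 in seized wild-type mice, without overlap (log2 means differed by 0.21, two-sided exact permutation test, p = 0.0357, the smallest possible here). Alpha7 +/T mouse 2 stood apart in pituitary hormone genes. Growth hormone (Gh) had signals of 74.9, 6111, 87.9, 98.8 and 109 in alpha7 +/T mice 1 to 5, against 100.5, 69.8 and 110.2 in wild-type mice 1 to 3. Prolactin (Prl) and Pomc were likewise highest in that mouse, at 4235 and 444. The other 7 mice had at most 68.9 for Prl and 58.1 for Pomc.

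No gene passed the test between seized alpha7 +/T and seized wild-type mice. Of 7350 probe sets tested, 0 were called (0%; limma with array class, Benjamini-Hochberg adjusted p under 0.05), and the smallest adjusted p was 0.581. At an unadjusted p under 0.05 there were 171 higher (2.33%) and 164 lower (2.23%) in alpha7 +/T mice, together 4.56%, against 367.5 that chance would give. Without alpha7 +/T mouse 2 the counts were 0 called and 315 at an unadjusted p under 0.05. The precision bounds this result. The 95% interval of the log2 difference lay within -1 and 1 for 5936 probe sets (80.8%) and within -0.5 and 0.5 for 2159 (29.4%). Data of the same design were simulated with 200 changed probe sets of mixed sizes per run. There 13.6% of probe sets with a log2 difference of 0.5 were called, and 72.4% of those with a difference of 1. These shares depend on the number of changed probe sets and fall when fewer change. That number is not known for the real data, so the shares do not bound the result. All values below are therefore measurements that did not pass the test over all probe sets, unless a call is stated. They come from whole brain, where fewer cells of a type and less RNA per cell cannot be told apart.

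Of 19 immediate early genes tested, 12 had log2 differences below 0 and 7 above. At an unadjusted p under 0.05, 1 was higher (Klf10) and 1 lower (Egr1), against 2.13% higher and 2.36% lower (4.48% together) of all 5599 genes, of which 2791 were below 0. The median of the list was -0.16, against 0.00037 over all genes. Fos, the AP-1 subunit used as a marker of neuronal activity, had signals of 834, 895, 655, 765 and 1067 in seized alpha7 +/T mice 1 to 5, against 1401, 1024 and 916 in seized wild-type mice 1 to 3. All 5 alpha7 +/T values lay below the wild-type mean, and the ranges overlapped. Its log2 difference of -0.28 ± 0.43 (SE of the limma fit, adjusted p = 1.00) had a 95% interval from -1.17 to 0.61. Without nicotine the Fos signal ranged from 54.4 to 399 in alpha7 +/T and from 197 to 408 in wild-type mice, below every seized mouse. Egr1, a zinc finger factor of synaptic plasticity, had 726, 769, 672, 535 and 864 in seized alpha7 +/T mice and 1247, 1077 and 826 in seized wild-type mice. Only alpha7 +/T mouse 5 exceeded any wild-type mouse, and the log2 difference was -0.59 ± 0.18 (limma, unadjusted p = 0.00252, adjusted p = 0.843). It was -0.61 in the high-ratio arrays alone.

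Seized wild-type mouse 1 was the highest of its group for several of these genes. Nr4a1, an orphan nuclear receptor, had 477, 439.7, 437, 517 and 441 in seized alpha7 +/T mice and 1071, 495 and 408 in seized wild-type mice. The log2 difference of -0.45 ± 0.29 became -0.04 without wild-type mouse 1. The same omission took Fos to -0.10 and Egr1 to -0.46. Fosb, a further Fos family member, had 338, 528, 242, 253 and 276 in seized alpha7 +/T mice and 431, 369 and 259 in seized wild-type mice. Here the highest mouse was alpha7 +/T mouse 2, the ranges overlapped, and the log2 difference was -0.30 ± 0.27. Junb, a partner of Fos in AP-1, had 229, 506, 214, 142 and 166 in seized alpha7 +/T mice and 252, 165 and 194 in seized wild-type mice. Its difference was -0.16 ± 0.36 with the class and 0.17 without it, and its other probe set stood at -0.28.

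Klf10, a zinc finger repressor known as a TGF-beta inducible gene, stood the other way. It had 308, 296, 273, 286 and 282 in seized alpha7 +/T mice and 217, 218 and 213 in seized wild-type mice. Every alpha7 +/T mouse thus lay above every wild-type mouse, as in 4.63% of the probe sets tested. The log2 difference was 0.34 ± 0.16 (limma, unadjusted p = 0.043, adjusted p = 1.00), and its other probe set gave 0.34. In untreated mice the order was the other way, with 114, 127, 112, 111 and 122 in alpha7 +/T mice 1 to 5 and 139 to 179 in wild-type mice. That untreated difference was called (-0.46, adjusted p = 0.0276). The difference between the seized and the untreated comparison was 0.80 ± 0.20 and did not pass (limma, adjusted p = 0.0599). Nfil3, a basic leucine zipper repressor, stood at 1.07 ± 0.53, with its other probe set at -0.41, and at 0.40 without wild-type mouse 2 and 1.79 without wild-type mouse 1.

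**Figure D1:**
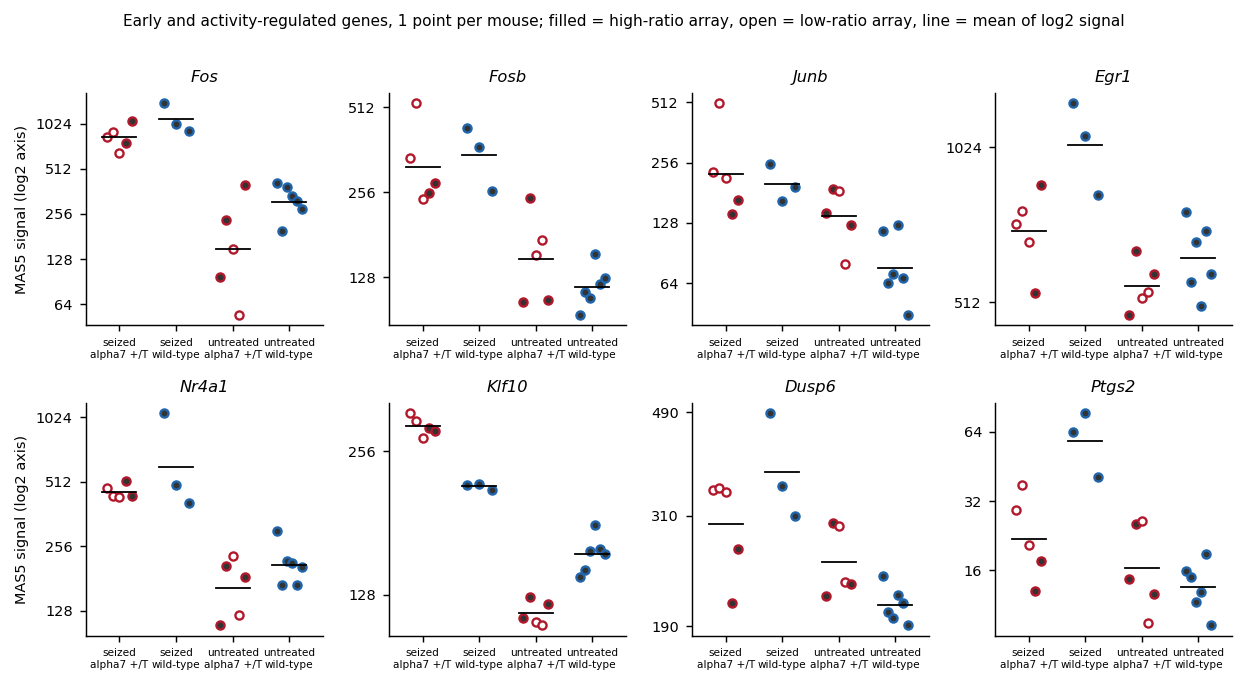
MAS5 signal (log2 axis) of 8 early and activity-regulated genes, 1 point per mouse, in seized alpha7 +/T, seized wild-type, untreated alpha7 +/T and untreated wild-type mice. Open points are low-ratio arrays, filled points high-ratio arrays, red outlines alpha7 +/T and blue outlines wild-type, and each line is the mean of log2 signal. Klf10 and Ptgs2 are the 2 genes shown whose seized groups do not overlap, Klf10 with alpha7 +/T above and Ptgs2 with alpha7 +/T below wild-type. Of all probe sets tested, 4.63% separate with alpha7 +/T above and 4.11% with alpha7 +/T below.

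Among the activity-regulated effectors, Ptgs2, the inducible prostaglandin synthase, had the largest log2 difference in size in the fit with array class. Its signals were 29.3, 37.5, 20.5, 13.0 and 17.4 in seized alpha7 +/T mice 1 to 5, against 63.9, 77.2 and 40.9 in seized wild-type mice 1 to 3. Every alpha7 +/T mouse lay below every wild-type mouse, as in 4.11% of the probe sets tested. The log2 difference was -1.67 ± 0.54 (limma, unadjusted p = 0.00464, adjusted p = 0.873), and -1.96 in the high-ratio arrays alone. Without the class it was -1.42, smaller in size than those of Nptx1 and of Dnajb5, a co-chaperone of the DnaJ family (2.29 without and 0.13 with the class). These are weak signals, since array medians of the 8 mice were 47.0 to 61.1, and no detection call was used here. In untreated mice Ptgs2 had 14.6, 25.5, 26.1, 9.43 and 12.6 in alpha7 +/T mice and 9.22 to 18.7 in wild-type mice, so the seized alpha7 +/T signals overlapped the untreated ones and the seized wild-type signals did not. The difference between the seized and the untreated genotype comparison was -1.78 ± 0.66 for Ptgs2 and did not pass (limma, adjusted p = 0.205).

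Bdnf, a neurotrophin, had 344, 396, 199, 448 and 601 in seized alpha7 +/T mice and 685, 868 and 578 in seized wild-type mice. Only alpha7 +/T mouse 5 reached into the wild-type range, and the log2 difference was -0.43 ± 0.21 with the class and -0.91 without it. Plat, the tissue plasminogen activator that processes proteins at synapses, had 423, 229, 439.9, 318 and 503 in seized alpha7 +/T mice and 503, 666 and 501 in seized wild-type mice (log2 difference -0.49 ± 0.21). Nptx1, a secreted pentraxin that gathers glutamate receptors, went the other way, with 529, 581, 357, 197 and 164 in seized alpha7 +/T mice and 88.0, 136 and 127 in seized wild-type mice. Here all alpha7 +/T mice lay above all wild-type mice, as in 4.63% of the probe sets tested. But the low-ratio mice 1 to 3 were the highest, and the difference was 0.67 ± 0.24 with the class and 1.49 without it. Of 18 effector genes tested, 1 was higher (Nptx1) and 3 were lower (Ptgs2, Plat and Bdnf) at an unadjusted p under 0.05, beside 2.13% and 2.36% of all genes. In all, 15 of the 18 differences were below 0 with the class and 10 without it, where Sorl1, Rgs4, Nefm, Gadd45g and Nptx2 turned. The median was -0.23 with the class, -0.23 in the high-ratio arrays and -0.16 without the class. Over all genes 2791 of 5599 differences were below 0 with the class and 2825 without it. Smaller differences below 0 came from Plk2, an activity-induced polo-like kinase (-0.31), Rgs2, a brake on G protein signalling (-0.26), and Gadd45b (-0.23). Sgk1, a kinase that stress and activity induce, stood at -0.02.

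MAP kinase feedback genes were split. Dusp6, the phosphatase that inactivates ERK, had 347, 351, 345, 211 and 268 in seized alpha7 +/T mice and 488, 353 and 310.0 in seized wild-type mice. The 3 low-ratio alpha7 +/T mice lay between wild-type mice 2 and 3, and both high-ratio ones lay below all wild-type mice. The log2 difference was -0.59 ± 0.17 (limma, unadjusted p = 0.00122, adjusted p = 0.581), -0.67 in the high-ratio arrays and -0.34 without the class. Dusp16 (0.51 ± 0.29), Dusp2 (0.46 ± 0.34) and Spry4 (0.30 ± 0.23), a further brake on growth factor signalling, stood above 0. Dusp6 was the 1 gene of 8 at an unadjusted p under 0.05, beside 2.13% higher and 2.36% lower of all genes. The median of the list was -0.05 with the class, 0.18 in the high-ratio arrays and -0.25 without the class.

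The sequences just upstream of Ptgs2, Dusp6 and Fos are shown because Ptgs2 and Dusp6 had the smallest p of the effector and feedback lists, and because Fos is the usual marker among the early genes. They run 5 prime to 3 prime over the 250 bases before the gene's start on the plus strand, from RefSeq on GRCm38.p6. Capitals mark TGACG, the core of the cAMP response element bound by CREB, or its reverse complement CGTCA.
Ptgs2, chr1:150099781-150100030: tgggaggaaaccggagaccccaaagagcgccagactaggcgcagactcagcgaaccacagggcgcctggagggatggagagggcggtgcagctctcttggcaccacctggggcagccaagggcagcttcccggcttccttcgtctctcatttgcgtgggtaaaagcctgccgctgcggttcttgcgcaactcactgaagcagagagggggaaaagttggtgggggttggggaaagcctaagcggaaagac
Dusp6, chr10:99262981-99263230: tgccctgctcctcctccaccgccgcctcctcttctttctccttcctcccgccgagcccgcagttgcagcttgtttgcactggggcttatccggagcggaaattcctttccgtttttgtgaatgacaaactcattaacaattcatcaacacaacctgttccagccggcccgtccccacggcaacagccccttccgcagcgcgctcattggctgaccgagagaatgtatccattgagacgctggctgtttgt
Fos, chr12:85473640-85473889: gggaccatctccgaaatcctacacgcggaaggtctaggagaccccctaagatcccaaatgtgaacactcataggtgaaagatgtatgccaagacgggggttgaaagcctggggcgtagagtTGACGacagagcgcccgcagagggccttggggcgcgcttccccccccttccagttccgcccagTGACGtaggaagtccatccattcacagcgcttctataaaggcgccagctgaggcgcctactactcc
The Fos window holds TGACG 2 times, beginning 129 and 66 bases before the start, and these letters are not in the Ptgs2 and Dusp6 windows. Bases outside these windows were not searched, so the absence holds for the printed letters only and not for the whole promoter. TGACG on either strand is in 17.8% of 32851 such windows, and the full palindrome TGACGTCA, which contains it, in 1.55% of them and in 0 of these 3. Of the 56 genes named by rule, 42 had such a window.

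The glucocorticoid-responsive genes included Ddit4, a restraint on mTOR signalling, with 429.7, 292, 359.9, 347 and 365 in seized alpha7 +/T mice and 486, 512 and 553 in seized wild-type mice. All alpha7 +/T mice lay below all wild-type mice, as in 4.11% of the probe sets tested. The log2 difference was -0.45 ± 0.19 (limma, unadjusted p = 0.0251) and did not pass after adjustment. The untreated difference of Ddit4 was of the same size (-0.44) and was not called (limma, adjusted p = 0.0653). Bcl6, a transcriptional repressor, had 268, 182, 191, 194 and 197 in seized alpha7 +/T mice and 213, 324 and 310.3 in seized wild-type mice. Alpha7 +/T mouse 1 alone exceeded wild-type mouse 1, and the log2 difference was -0.50 ± 0.20. Cdkn1a, an inhibitor of cell cycle kinases, stood at -0.48 ± 0.27, at -0.15 in the high-ratio arrays, and its other probe set at -0.06. Angptl4, a regulator of lipoprotein lipase, stood at 0.67 ± 0.53, with its other probe set at -0.01. It was 0.01 without wild-type mouse 3 and 1.02 without wild-type mouse 2. Of 22 genes tested, 0 were higher and 2 lower at an unadjusted p under 0.05, beside 2.13% and 2.36% of all genes. The median was -0.05 with and -0.23 without the class. The circadian genes had 0 of 17 in either direction and a median of 0.19, which was 0.04 in the high-ratio arrays and 0.12 without the class. The clock repressors Bhlhe40 and Per1 stood at -0.32 ± 0.22 and -0.34 ± 0.31 in seized mice, and their untreated differences were called (-0.72, adjusted p = 0.0161, and -0.94, adjusted p = 0.0231). The seized and untreated differences were not told apart by the direct test. Their gaps were 0.40 ± 0.27 for Bhlhe40 (limma, adjusted p = 0.483) and 0.60 ± 0.38 for Per1 (adjusted p = 0.461). Cry1 stood at 0.22 ± 0.16 with the class and -0.13 without it.

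The 6 genes with the smallest p on the higher side were Agap1, Bcl2, Ttc39b, Tnks1bp1, Vhl and Gpr50. In each of them all 5 alpha7 +/T mice lay above all 3 wild-type mice, which held for 4.63% of the probe sets tested. Bcl2, which keeps mitochondria from releasing death signals, had 120.3, 146, 159, 141 and 106 in seized alpha7 +/T mice and 69.9, 68.9 and 65.7 in seized wild-type mice. Its log2 difference was 0.71 ± 0.18 (limma, unadjusted p = 0.000511, adjusted p = 0.581), 0.85 in the high-ratio arrays, with its other probe set at 0.34. Gpr50, an orphan receptor related to melatonin receptors, had 258, 247, 357, 309 and 309 in seized alpha7 +/T mice and 175, 202 and 198 in seized wild-type mice, a difference of 0.64 ± 0.17. Tnks1bp1, a tankyrase-binding protein, had 115, 129, 70.4, 108 and 92.3 in seized alpha7 +/T mice and 47.4, 47.0 and 56.6 in seized wild-type mice, a difference of 0.86 ± 0.23. Vhl, the ubiquitin ligase subunit that marks hypoxia-inducible factors for destruction, had 72.9, 82.3, 38.2, 40.7 and 16.5 in seized alpha7 +/T mice and 4.58, 3.60 and 9.38 in seized wild-type mice. The difference of 2.33 ± 0.63 rests on wild-type signals far under the array medians, and was 1.32 with signals floored at the 25th percentile and 3.01 without the class. Agap1, an ARF GTPase-activating protein, stood at 0.81 ± 0.20, but its other, brighter probe set at -0.07. Ttc39b, a tetratricopeptide repeat protein, likewise stood at 1.64 ± 0.43, with its brighter probe set at -0.05.

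The 6 genes with the smallest p on the lower side were Anks3, Selenos, Kcnk1, Ginm1, Dusp6 and U2af1. In Anks3, Selenos and U2af1 all 5 alpha7 +/T mice lay below all 3 wild-type mice, as in 4.11% of the probe sets tested. Anks3, an ankyrin repeat protein of primary cilia, had 49.2, 43.2, 37.1, 18.9 and 25.1 in seized alpha7 +/T mice and 58.2, 60.6 and 71.4 in seized wild-type mice. Its log2 difference of -1.26 ± 0.28 had the smallest p of all probe sets (limma, unadjusted p = 0.000122, adjusted p = 0.581). Selenos, a selenoprotein that helps clear misfolded proteins from the endoplasmic reticulum, had 136, 85.6, 76.1, 69.5 and 110.3 in seized alpha7 +/T mice and 175, 174 and 170.4 in seized wild-type mice. The 3 wild-type mice were within a few units of each other and all alpha7 +/T mice lay below them (log2 difference -0.81 ± 0.21). Kcnk1, a background potassium channel, had 536, 219.6, 328, 254 and 358 in seized alpha7 +/T mice and 681, 446 and 524 in seized wild-type mice, where alpha7 +/T mouse 1 overlapped the wild-type mice (-0.97 ± 0.26). Ginm1, a membrane glycoprotein, had 96.7, 28.3, 27.2, 27.7 and 65.9 in seized alpha7 +/T mice and 119, 128 and 86.3 in seized wild-type mice, with the same mouse inside the wild-type range (-1.21 ± 0.33). Without alpha7 +/T mouse 1 Ginm1 was called (-1.46, limma, adjusted p = 0.0254). U2af1, a subunit of the factor that recognises the 3 prime splice site, had 230.4, 241, 205, 124 and 212 in seized alpha7 +/T mice and 246, 271 and 259 in seized wild-type mice. Alpha7 +/T mouse 4 was the lowest (-0.67 ± 0.19). All 12 genes kept their sign in the high-ratio arrays alone, a condition that shares 5 of the 8 arrays and is not independent of the fit.

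**Figure D2:**
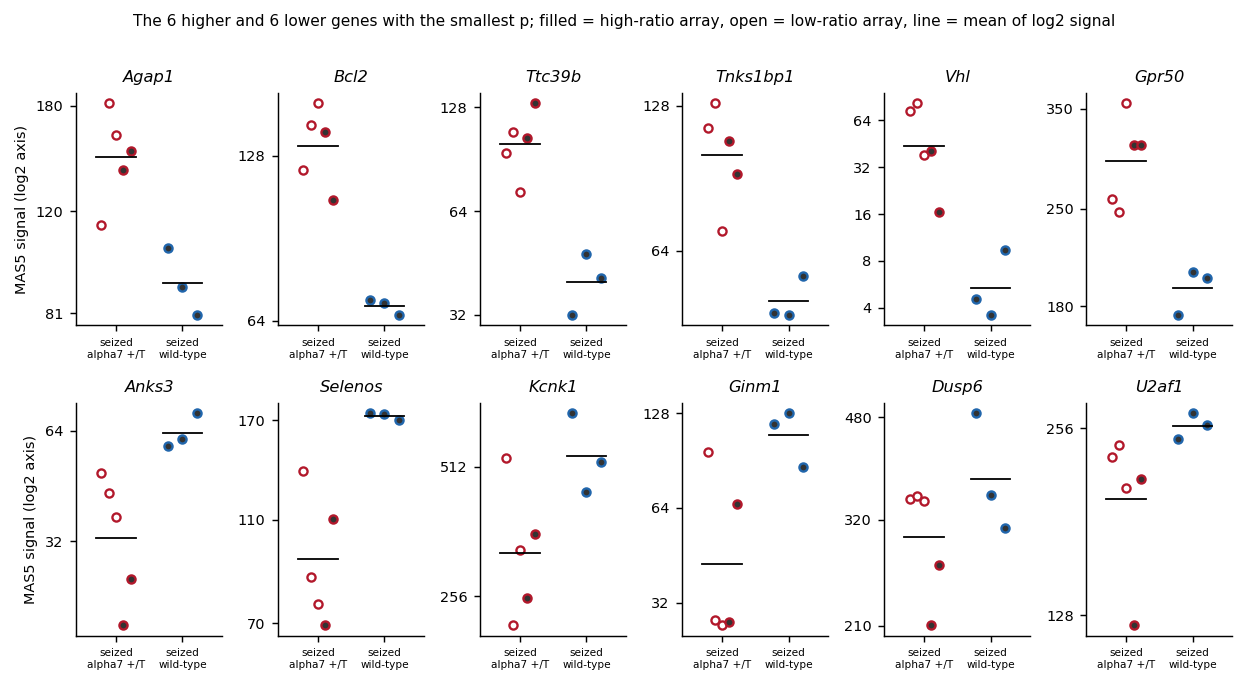
MAS5 signal (log2 axis) of the 6 higher and 6 lower genes with the smallest p, 1 point per mouse, seized alpha7 +/T left and seized wild-type right in each panel. Open points are low-ratio arrays, filled points high-ratio arrays, and each line is the mean of log2 signal. The groups separate in all 6 higher genes and overlap in Kcnk1, Ginm1 and Dusp6.

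The targeted gene did not separate the groups. Chrna7 had 121, 89.3, 78.9, 94.3 and 30.7 in seized alpha7 +/T mice and 47.7, 56.3 and 71.5 in seized wild-type mice. Alpha7 +/T mouse 5 was the lowest of all 8, the other 4 lay above the wild-type mice, and the log2 difference was -0.09 ± 0.41, with a 95% interval from -0.94 to 0.75 (limma, adjusted p = 1.00). It was 0.39 without the class, so its sign depends on that choice. An array signal for the transcript does not read the L250T base change, so it does not check the genotype labels. Chrna4, Chrnb2, Chrna3, Chrna5 and Chrnb4 had no probe set tested and were not analysed here. Of 8 nicotinic receptor genes and partners, 0 were at an unadjusted p under 0.05, beside 2.13% higher and 2.36% lower of all genes. Their median was 0.01. The muscle-type subunits Chrng and Chrne stood at -0.52 ± 0.57 and -0.15 ± 0.41, the receptor-clustering protein Rapsn at 0.11 ± 0.32, and Vsnl1, a neuronal calcium sensor, at 0.09 ± 0.18.

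Genes near Chrna7 on chromosome 7, where the altered allele lies, were counted apart from the rest. Of 19 genes tested within 10 Mb, Chrna7 included, Selenos was the 1 at an unadjusted p under 0.05, and the median was -0.09. The remaining 407 tested genes of chromosome 7 had 12 higher and 7 lower at that p, and a median of 0.0018. Over all genes 2.13% were higher and 2.36% lower. Tjp1, a tight junction scaffold, was the 1 neighbour called in untreated mice (-0.49, limma, adjusted p = 0.0349; 4.23% of all genes were called higher there and 4.95% lower). In seized mice Tjp1 had 394, 337, 246, 431 and 464 in seized alpha7 +/T mice and 479.8, 557 and 477 in seized wild-type mice. All alpha7 +/T mice lay below all wild-type mice, as in 4.11% of the probe sets tested, and the log2 difference was -0.19 ± 0.18. The gap between the seized and untreated differences of Tjp1, 0.29 ± 0.22, did not pass (limma, adjusted p = 0.528).

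Several synaptic and channel genes differed between low-ratio and high-ratio arrays within the alpha7 +/T mice. Gria1, an AMPA receptor subunit, had 469, 483, 489, 211 and 206 in seized alpha7 +/T mice and 173, 212 and 224 in seized wild-type mice. The 3 low-ratio alpha7 +/T mice were above the rest and the high-ratio ones lay among the wild-type mice, with a log2 difference of 0.23 ± 0.27 with the class and 0.77 without it. Grin2b, an NMDA receptor subunit, had 61.6, 75.7, 59.6, 7.84 and 12.4 in seized alpha7 +/T mice and 18.2, 23.5 and 21.7 in seized wild-type mice. The 3 low-ratio mice were above and both high-ratio mice below the wild-type mice, so its difference was -1.29 ± 0.61 with the class (limma, unadjusted p = 0.0415) and 0.55 without it. Kcnj9, a G protein-gated potassium channel subunit, had 199.6, 197, 205, 21.8 and 54.6 in seized alpha7 +/T mice and 65.1, 54.4 and 62.8 in seized wild-type mice, and turned in the same way (-0.44 with and 0.71 without the class; other probe set 0.23). Gad2, an enzyme of GABA synthesis, stood at 0.56 ± 0.52 with and 1.86 without the class, and Gabbr1, a GABA-B receptor subunit, at 0.32 ± 0.18 and 0.82. The GABA-A subunit Gabrd stood at -0.44 and 0.06. Slc1a1, a neuronal glutamate transporter, stood at 0.37 with and 0.95 without the class. The GABA-A subunit Gabrb1 stood at 0.23 with and 0.09 without the class. The glial transporter Slc1a2 (0.34 and 0.28) and the calcium channel Cacna1a (-0.77 and -0.73) moved less between the fits. Cacna1a had 152, 156, 149, 148 and 98.9 in seized alpha7 +/T mice and 160.2, 355 and 217 in seized wild-type mice. Every alpha7 +/T mouse lay below every wild-type mouse, as in 4.11% of the probe sets tested. The Cacna1a difference was -0.46 without wild-type mouse 2, -0.24 against wild-type mouse 1 alone and -1.42 with class and title prefix. The potassium channels Kcnh1 and Kcnd3 stood at -1.41 ± 0.69 and -0.92 ± 0.60 with the class, and at -0.69 and -0.57 without it. Kcnh1 had 112, 18.4, 16.1, 4.46 and 7.25 in seized alpha7 +/T mice and 28.2, 28.8 and 21.4 in seized wild-type mice. These are mostly weak signals under the array medians. The untreated difference of Kcnh1 was -1.69 and was not called (limma, adjusted p = 0.0548).

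The glutamate, synaptic vesicle and neuron marker lists were near 0 with the class and above it without. Counts of genes in this paragraph are at an unadjusted p under 0.05, beside 2.13% higher and 2.36% lower of all genes. The glutamate list (14 genes, 0 higher and 1 lower at an unadjusted p under 0.05) had medians of 0.06 with and 0.40 without the class. The synaptic vesicle list (23 genes, 0 in either direction) had 0.04 and 0.29, and the neuron markers (12 genes, 0 higher and 1 lower) 0.05 and 0.49. Among the lists whose medians were below 0 without the class, oxidative phosphorylation subunits (63 genes, 2 higher and 0 lower) had medians of -0.01 with and -0.24 without the class, and splicing factors (45 genes, 0 higher and 3 lower) -0.02 and -0.17. GABA synapse genes (14), voltage-gated channels (20) and neuropeptides (19) had 0 genes at an unadjusted p under 0.05 and medians of 0.04, -0.08 and -0.06 with the class. Without it these were 0.07, 0.04 and -0.23. Calcium signalling enzymes (26 genes, 1 higher), heat shock proteins (34 genes, 1 higher and 2 lower), unfolded protein response genes (12 genes, 0), proteasome subunits (33 genes, 1 lower) and ribosomal proteins (23 genes, 1 higher and 2 lower) had medians between -0.03 and 0.07 with the class and between -0.13 and -0.02 without it. Both tested genes of the cholinergic list were below 0 with the class and their median was 0.93 without it.

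**Figure D3:**
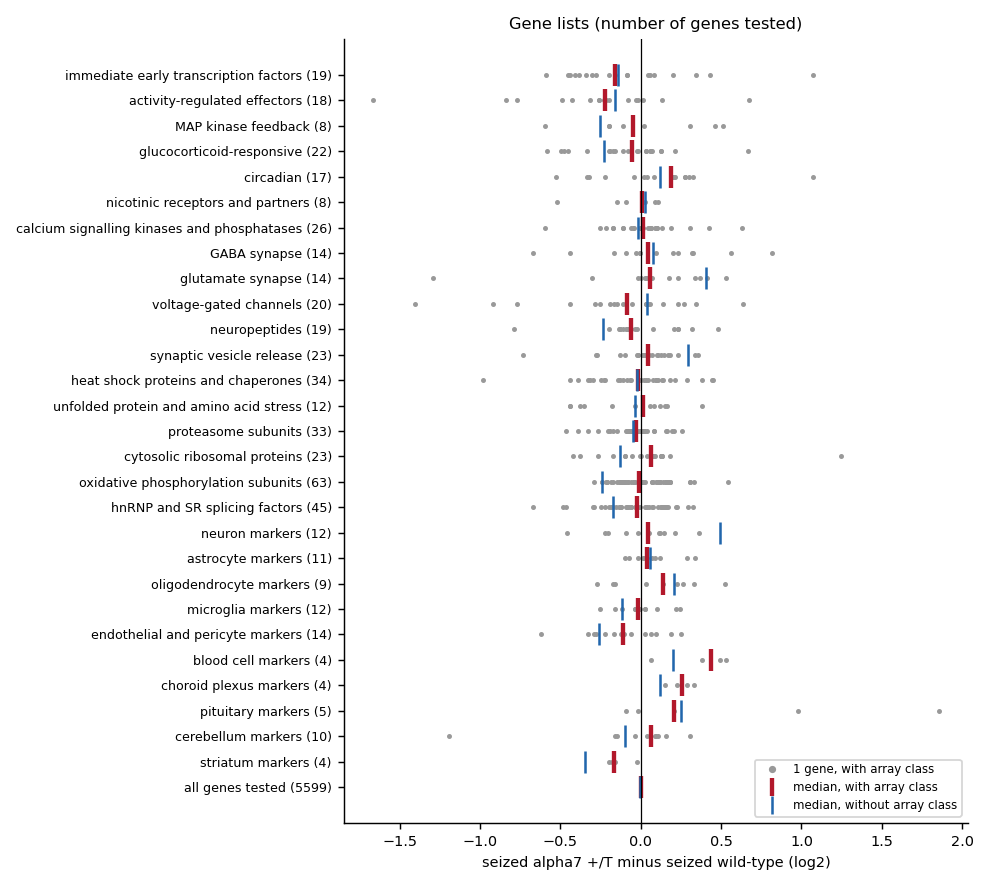
Log2 difference, seized alpha7 +/T minus seized wild-type, of each gene in 28 lists with at least 3 genes tested and the median over all genes tested. Grey points are genes and red bars medians from the fit with array class, and blue bars medians without it. With the class most medians lie near 0, and without it the neuron markers and glutamate genes lie to the right, and striatum and endothelial markers to the left.

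Markers of the cell types and regions that whole brain holds gave the following summed signals. Neuron markers summed to 13919 to 19194 in alpha7 +/T and 13750 to 14654 in wild-type mice, and astrocyte markers to 10187 to 11258 in alpha7 +/T and 10407 to 10862 in wild-type mice. Oligodendrocyte, microglia and endothelial sums overlapped between the groups as well. Pituitary markers summed to 298 to 11035 in alpha7 +/T and 276 to 352 in wild-type mice, the highest being alpha7 +/T mouse 2. Striatum markers summed to 2412 to 3917 in alpha7 +/T and 3621 to 3809 in wild-type mice, and cerebellum markers to 6170 to 7570 in alpha7 +/T and 6900 to 7632 in wild-type mice. Blood and choroid plexus sums overlapped. With the class all 4 blood markers tested had differences above 0 (median 0.44), as had all 4 choroid plexus markers (0.26). All 4 striatum markers lay below 0 (-0.17). Without the class the blood and choroid plexus medians were 0.20 and 0.12, with 1 choroid plexus marker below 0. The log2 means of the summed signals differed by 0.056 for blood and -0.11 for choroid plexus. Endothelial markers had a median of -0.11 with and -0.26 without the class, and striatum markers -0.35 without it. Of these 10 marker lists, neurons had 1 of 12 genes lower and the cerebellum 1 higher and 1 lower of 10 at an unadjusted p under 0.05, and the other 8 lists had 0. Over all genes 2.13% were higher and 2.36% lower at that p. The part of tissue make-up in the gene values above was not tested.

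The seized comparison was then set beside the same comparison without nicotine. Untreated alpha7 +/T and wild-type mice differed at 669 of 7350 probe sets (9.1%; 316 higher, 4.3%, and 353 lower, 4.8%, by limma), and the median size of a log2 difference was 0.247 there and 0.149 in seized mice. Of those 669 probe sets, 348 had the same sign in seized mice, and the median share of the untreated difference found in seized mice was 0.0125. They were picked by their untreated difference, so this share is not independent of that choice. The count of same signs over all probe sets was not taken. The standard error was larger in seized mice (median 0.222, against 0.180 in untreated mice), and 4 of 5 untreated alpha7 +/T mice were 6 weeks old, an age that no seized mouse had. The untreated calls also depended on the arrays, with 3 in high-ratio arrays alone. Whether the genotype difference itself differed between seized and untreated mice was tested as the difference of both. It was called for 12 probe sets (0.163%; 8 higher, 0.109%, and 4 lower, 0.0544%), 8 of them with 1 named gene, and for 0 in the high-ratio arrays alone or without the class.

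**Figure D4:**
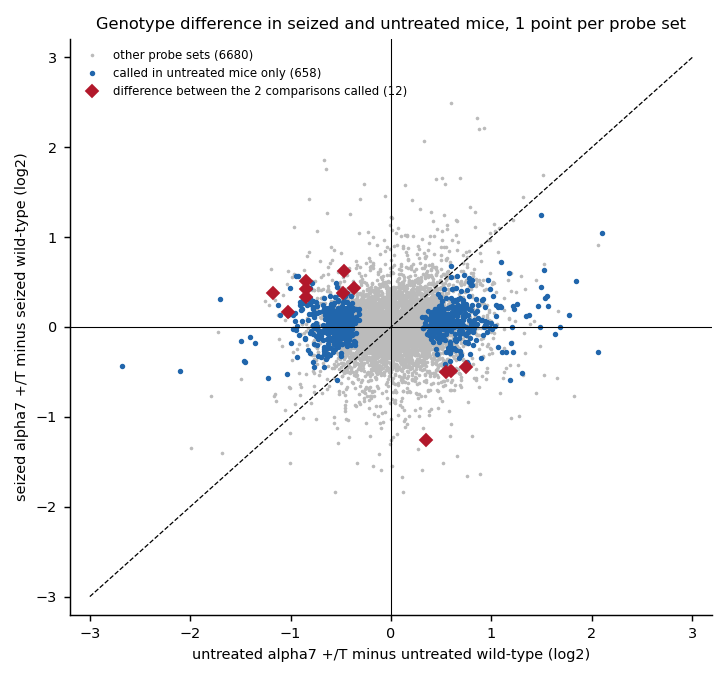
Log2 difference of alpha7 +/T minus wild-type in seized mice (vertical axis) against the same in untreated mice (horizontal axis), 1 point per probe set, with the dashed line marking equal differences. Blue points are the 658 probe sets called in untreated mice only and red diamonds the 12 for which the difference between both comparisons was called. The blue points were picked by their value on the horizontal axis. They spread along it and lie near 0 on the vertical one.

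Hexa, a lysosomal enzyme subunit that degrades gangliosides, led those genes. It had 158, 158, 144, 75.6 and 97.3 in seized alpha7 +/T and 145, 115 and 104 in seized wild-type mice, and 202, 130.4, 269, 249 and 139 in untreated alpha7 +/T mice against a range of 72.3 to 117 in untreated wild-type mice. All untreated alpha7 +/T mice lay above all untreated wild-type mice, while the seized groups overlapped. The log2 genotype difference was -0.45 in seized and 0.75 in untreated mice, which differ by -1.20 ± 0.21 (limma, adjusted p = 0.0245). The genes here were picked by a contrast that uses these same arrays, so separations of the groups are not independent of that choice. The share of all probe sets that separate the untreated groups was not counted. B3galt2, a galactosyltransferase, had 166, 104, 163, 145 and 138 in seized alpha7 +/T and 89.3, 129 and 125 in seized wild-type mice, and 81.2, 80.5, 50.4, 49.3 and 103 in untreated alpha7 +/T mice against a range of 141 to 187 in untreated wild-type mice. Untreated alpha7 +/T mice were all below untreated wild-type mice and seized ones were not, so the differences of 0.38 and -1.17 differ by 1.56 ± 0.30 (limma, adjusted p = 0.0278). Clk1, a kinase of splicing factors, had 653, 575, 497, 682 and 635 in seized alpha7 +/T and 434, 492 and 451 in seized wild-type mice, and 644, 532, 288, 323 and 655 in untreated alpha7 +/T mice against a range of 624 to 854 in untreated wild-type mice. All seized alpha7 +/T mice exceeded all seized wild-type mice, as in 4.63% of the probe sets tested. The differences of 0.62 in seized and -0.46 in untreated mice differ by 1.09 ± 0.21 (limma, adjusted p = 0.0278). Bex1, an adaptor in neurotrophin signalling, stood at -0.50 in seized and 0.54 in untreated mice, a gap of -1.04 ± 0.22 (limma, adjusted p = 0.0473). Anks3 stood at -1.26 and 0.35, a gap of -1.62 ± 0.35 (adjusted p = 0.0473), and Ankrd28, a phosphatase scaffold, at 0.43 and -0.37, a gap of 0.80 ± 0.16 (adjusted p = 0.0278). Lamp2, a lysosomal membrane protein, and Pag1, a membrane adaptor of Src kinases, were the other named genes, with gaps of 1.36 and 1.19. In the high-ratio arrays alone these 8 genes kept the sign of the gap, with adjusted p from 0.24 to 0.353, and likewise without the class, with adjusted p from 0.17 to 0.742.

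**Figure D5:**
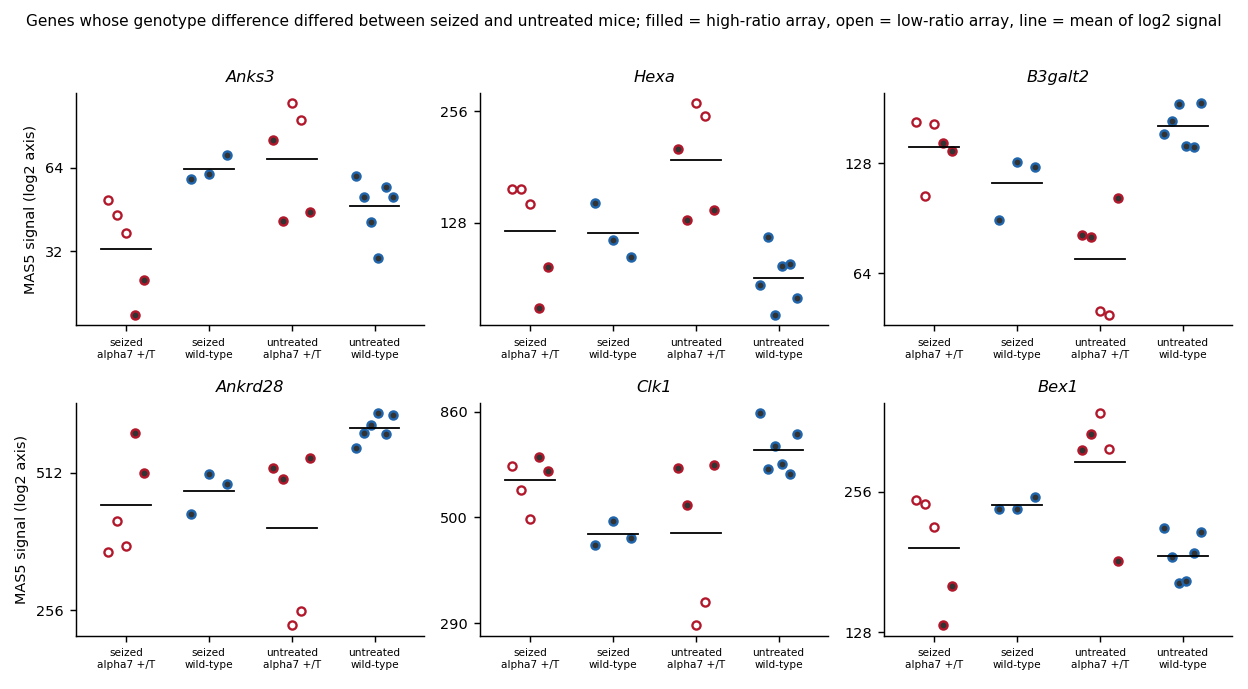
MAS5 signal (log2 axis) of the 6 named genes with the smallest p for the difference between the seized and the untreated genotype comparison, 1 point per mouse, in seized alpha7 +/T, seized wild-type, untreated alpha7 +/T and untreated wild-type mice. Open points are low-ratio arrays, filled points high-ratio arrays, and each line is the mean of log2 signal. In B3galt2, Ankrd28 and Clk1 the 2 low-ratio untreated alpha7 +/T mice are the lowest of their group. In Hexa and Anks3 the same 2 mice are the highest of their group.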

How the data were processed

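Whole-brain RNA of 28 mice was measured on U74Av2 arrays, 1 per mouse. Each deposited value is a probe set's signal intensity, for which the authors used MAS5 according to the submitters' processing notes (version not given there). Array totals had been scaled to a common trimmed mean. Values were taken as log2 with no further normalization. Of 12488 probe sets, 66 controls were left out, and 7350 (59.2%; 5599 genes) whose signal exceeded their own array's median in at least 3 arrays were tested. Genes were named from the 10833 probe sets that the platform annotation pairs with 1 gene (396 had several, 1193 were not listed), with 10817 matched by gene ID to a GRCm38.p6 table.

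Differences were fitted with limma 3.58.1 (R 4.3.3; lmFit, eBayes with trend) with 6 group means and array class (Gapdh log2 ratio below 0.5) over 28 arrays, leaving 21 residual degrees of freedom. P-values are two-sided and adjusted by Benjamini-Hochberg at 0.05, and errors are SE. No pair of the 8 arrays was identical, and each sample is 1 mouse. Mice are numbered in accession order. On simulated data 4.96% of called probe sets were unchanged ones. The simulation drew noise independently between probe sets.

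The comparison, the class and the 29 gene lists were chosen with earlier results of these data known. Lists are described by counts and medians over 1 probe set per gene, the brightest, with no set test. Named were the 6 genes with the smallest p in each direction (none passed), up to 4 genes with the smallest p of each of 9 lists, Chrna7 and related subunits, Fos, Fosb, Junb, Egr1, Nr4a1 and Klf10, the 6 genes with the smallest adjusted p for the seized minus untreated difference, and called neighbours of Chrna7. Gh, Prl, Pomc, Plk2, Rgs2, Gadd45b, Sgk1, Dnajb5, Sorl1, Rgs4, Nefm, Gadd45g, Nptx2, Lamp2 and Pag1 were added after their values were seen. The number of arrays limits the precision. Alternatives were other covariates, arrays, normalizations, filters and variance models, and each mouse left out in turn.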

Additional observations from a re-analysis of the deposited data

Results flagged for a closer look

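In 4 of the 56 named genes, 1 of the 5 seized alpha7 +/T mice lay far from the others, with a gap to its nearest neighbour of more than 0.71 of the group's range, both taken on log2 signal. Chance alone gives about 1 such gene in 20. U2af1 had 123.5 in mouse 4 against 205 to 241 in the other 4 mice, a gap of 0.759 of the range. Bcl6 had 268 in mouse 1 against 182 to 197, a gap of 0.796. Angptl4 had 17.3 in mouse 2, the mouse with the high pituitary hormone signals, against 69.7 to 96.6, a gap of 0.81. Cacna1a had 98.9 in mouse 5 against 148 to 156, a gap of 0.894.

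For 6 genes named by rule the genotype difference differed between seized and untreated mice by a direct test of both (limma, adjusted p under 0.05). Lamp2 and Pag1 passed as well (limma, adjusted p = 0.0473 for each) but fell outside the 6 that the rule takes. The gaps on the log2 scale, seized minus untreated, were -1.62 for Anks3, -1.2 for Hexa and -1.04 for Bex1, and 1.56 for B3galt2, 1.09 for Clk1 and 0.804 for Ankrd28. None of the 6 passed in the high-ratio arrays alone or in the fit without array class, and all kept their sign. The gaps of Anks3, Hexa, Bex1, B3galt2, Clk1 and Ankrd28 were -1.72, -1.24, -1.24, 1.21, 0.74 and 0.57 in the high-ratio arrays. Without the class they were -1.51, -1.04, -0.98, 1.54, 1.01 and 0.63.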

How the results depend on the processing

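No paired analysis was possible because the labels give no replicate numbers that the groups share. The seized comparison had 0 probe sets called in every alternative tried except with wild-type mice of the B4 prefix only, where 1 probe set paired with no single gene was called (limma). With 1 mouse left out it had 0 to 1, the 1 being Ginm1 without alpha7 +/T mouse 1. At an unadjusted p under 0.05 the count ran from 184 (LT-prefix wild-type mouse only) to 926 (both compared groups alone, without class) over these settings, and was 882 without the class.

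The 669 untreated calls became 1177 without class, 396 with a class effect by treatment, 153 with class and title prefix, 3 in high-ratio arrays, 0 in a fit of both groups alone with class (limma), 121 with LT-prefix wild-type mice, 1098 with median centring (130 higher and 968 lower) and 408 with array weights. With 1 mouse left out they numbered 292 to 1337, the extremes coming from untreated alpha7 +/T mice 2 and 5. The 12 calls for the difference of both comparisons became 0 without class, with a class effect by treatment, in high-ratio arrays, in the fits of 4 groups with or without class and with LT-prefix wild-type mice. They became 1 with class and age or with B4-prefix wild-type mice, 5 with no filter, 27 with quantile normalization, 34 with the stricter filter, 45 with class and sex, 46 with array weights, 48 with median centring and 52 with class and title prefix. With 1 mouse left out the lowest count was 0 (among others when seized wild-type mouse 1 was out) and the highest 286 (when untreated alpha7 +/T mouse 5 was out).

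Among the named genes the sign of the seized log2 difference turned mainly without the class, with the same values in the fit of both groups alone. There Cry1 was -0.13, Per1 0.091, Gabrd 0.059, Grin2b 0.55, Kcnj9 0.71, Chrna7 0.39, Junb 0.17, Hexa 0.015 and Ankrd28 -0.10. Chrna7 was also 0.048 with a class effect by treatment or in the 12 seized arrays alone, 0.0093 with class and sex and 0.18 with the LT-prefix wild-type mouse, and ran from -0.40 to 0.22 with 1 mouse left out. Chrne was 0.17 with class and title prefix, 0.23 in high-ratio arrays or in both groups alone with class and 0.55 with the LT-prefix wild-type mouse, and ran from -0.50 to 0.19 with 1 mouse left out. Vsnl1 was -0.0034 with a class effect by treatment or in the 12 seized arrays alone. Rapsn was -0.030 with class and age and ran from -0.019 to 0.20 with 1 mouse left out. Slc1a2 was -0.019 with class and title prefix and -0.011 with the LT-prefix wild-type mouse, and Nfil3 was -0.37 with that same mouse. Junb was 0.0061 with B4-prefix wild-type mice and ran from -0.34 to 0.0061 with 1 mouse left out. The cause of these turns was not tested. The 12 genes of smallest p kept their sign in all alternatives tried, and so did Egr1, Klf10, Ptgs2 and Fos. Nr4a1, Plat and Bdnf were among the other named genes that kept theirs. The 12 genes were picked by p from these same arrays, which the alternatives mostly share, so a kept sign is not independent of that choice.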
